A study of Mus musculus with 9 samples.

Results

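The 9 genes described here encode enzymes of methionine and one-carbon metabolism in mouse liver, Mat1a, Mat2a, Gnmt, Pemt, Ahcy, Bhmt, Dmgdh, Cbs and Cth. Their rows were selected by gene name alone, with no threshold on a measured value. The 9 genes themselves were chosen with earlier results of these data known. The gene table held 52151 entries, and 13 of them carried one of the 9 names. Of these, 9 held a known transcript, 1 for each gene, and these were used. The remaining 4 entries, named for Bhmt, Dmgdh, Cth and Pemt, held only transcripts assembled from these libraries, and their highest level was 2.37 FPKM. All 9 genes passed the filter on low values in each comparison.

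The liver was taken from mice labelled 8 weeks of age after 5 weeks of liquid diet. Pair-fed mice (PF) received an isocaloric diet without alcohol, alcohol-fed mice (AF) received the Lieber-DeCarli alcohol diet, and the last group received that alcohol diet with MNA injected into the abdominal cavity each day at 50 mg/kg (AF with MNA, or the MNA group). The labels do not spell out MNA. Each group had 3 libraries of ribosome-depleted, strand-specific total RNA, and the labels do not say that each came from a separate animal, so that the p-values measure the spread between libraries. The labels give the strain as C57BL/6 for PF and AF and as C57BL/7, C57BL/8 and C57BL/9 for the 3 AF with MNA libraries, and no group received MNA without alcohol. The methods describe male mice fasted before the liver was taken.

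The methionine cycle makes S-adenosylmethionine, the methyl donor of the cell, from methionine and ATP. Methyltransferases turn it into S-adenosylhomocysteine, which is hydrolysed to adenosine and homocysteine. Homocysteine is either methylated back to methionine, in liver also with betaine as the donor, or passed to cysteine by transsulfuration, and the liver is the main site of this turnover. Mat1a encodes the S-adenosylmethionine synthetase of mature hepatocytes and Mat2a the form found in most other tissues. Gnmt, which methylates glycine to sarcosine, and Pemt, which methylates phosphatidylethanolamine to phosphatidylcholine, use the methyl donor. Ahcy hydrolyses S-adenosylhomocysteine, Bhmt moves a methyl group from betaine to homocysteine, and Dmgdh oxidises the dimethylglycine that Bhmt leaves. Cbs and Cth carry out the transsulfuration steps from homocysteine to cysteine.

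Sequence before the start of 7 of the 9 genes was found in the RefSeq promoter table for GRCm38.p6, and the windows of Mat2a and Gnmt are shown because these genes did not overlap between AF with MNA and PF. Each window runs from 250 bases before the start to 50 bases after it, on the strand of the gene. Mat2a lies at chr6:72439507-72439806 on the minus strand and Gnmt at chr17:46729116-46729415 on the minus strand. Capitals mark matches, on either strand, to 4 motifs, where the letters TATAAA stand for a TATA box, the letters CCAAT for a CCAAT box, the letters GGGCGG for a GC box and the letters CACGTG for an E-box.
Mat2a: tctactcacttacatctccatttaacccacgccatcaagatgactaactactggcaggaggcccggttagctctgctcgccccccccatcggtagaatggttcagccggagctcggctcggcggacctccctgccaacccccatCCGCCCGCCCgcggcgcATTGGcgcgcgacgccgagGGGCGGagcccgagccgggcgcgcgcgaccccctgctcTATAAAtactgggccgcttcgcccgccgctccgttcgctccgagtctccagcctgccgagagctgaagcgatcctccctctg
Gnmt: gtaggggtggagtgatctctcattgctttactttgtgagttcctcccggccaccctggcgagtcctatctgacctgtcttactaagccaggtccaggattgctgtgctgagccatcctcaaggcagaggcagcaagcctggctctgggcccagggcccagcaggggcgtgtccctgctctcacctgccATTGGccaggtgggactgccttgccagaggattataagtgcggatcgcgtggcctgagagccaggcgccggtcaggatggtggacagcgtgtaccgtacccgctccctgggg
The Mat2a window held a TATA box, a CCAAT box and several GC boxes, of which a pair overlapped each other, and the Gnmt window held a CCAAT box alone. Among 8 windows of the enzymes, with 2 for Pemt, 6 held a CCAAT box, 4 a GC box, 1 a TATA box and 1 an E-box. Of all 32851 promoter windows in the table, 37.4% held a CCAAT box, 35.7% a GC box, 13.6% a TATA box and 7.15% an E-box.

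Levels are given in FPKM as deposited, which scales the fragments of a gene to its length and to the depth of the library. Total reads, recovered from the circRNA table for reads assumed to be 150 bases long, were between 57800660 and 82179248 per library. Summed FPKM of transcripts inside introns was 9433.37 in AF replicate 3 and 8934.09 in AF with MNA replicate 1, against 2477.04 to 4936.71 in the other 7 libraries. The hepatocyte markers were present in every library, with summed levels of 15433.1 to 20315.1 FPKM in PF, 13246.5 to 19958.2 in AF, against 18303.6 to 20266.0 in the MNA group. The summed levels of 7 periportal hepatocyte markers were 1614.53 to 2228.34 FPKM in PF, 2281.95 to 2946.93 in AF, against 1987.05 to 2399.97 in the MNA group. Those of 6 sinusoidal endothelial markers were 22.67 to 29.5 FPKM in PF, 30.52 to 43.18 in AF, against 36.85 to 40.34 in the MNA group. Those of 5 cholangiocyte markers were 3.27 to 4.31 FPKM in PF, 4.86 to 9.12 in AF, against 3.34 to 6.33 in the MNA group. None of the 6 lymphocyte and neutrophil markers passed 0.92 FPKM in any library, and their sums were 0.57 to 0.9 FPKM in PF, 1.04 to 1.8 in AF, against 0.54 to 0.81 in the MNA group. The periportal, endothelial, cholangiocyte, and lymphocyte and neutrophil sums did not overlap between AF and PF, while those of pericentral hepatocytes, Kupffer cells and stellate cells overlapped. Members of a list differed in direction. Mean S100a8 was 0.147 FPKM in PF and 0.657 in AF. S100a9 and Cd3d were also higher in AF, and Cd3e, Cd79a and Ms4a1 lower. Spp1, 2.54 FPKM in PF and 4.88 in AF, made up most of the cholangiocyte sums. Of the periportal markers, mean Cyp2f2 alone was lower in AF, at 356 FPKM in PF and 328 in AF. AF was higher without overlap for 2 of 7 periportal and 1 of 6 endothelial markers, against 8.18% of all genes. The part of these markers in the results below was not tested. In bulk liver a difference in the number of cells of a type and a difference in RNA per cell cannot be told apart.

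The 9 genes fell into a high and a low set in every group. In PF the mean levels were 498 FPKM ± 10.1 (SD, n = 3) for Gnmt, 387 ± 97.5 for Bhmt, 317 ± 27.5 for Mat1a, 148 ± 18.0 for Ahcy and 84.4 ± 15.8 for Dmgdh. The 4 others were lower, at 16.7 ± 2.23 FPKM for Cth, 14.2 ± 2.57 for Cbs, 12.5 ± 3.19 for Mat2a and 8.94 ± 1.497 for Pemt. In this order the libraries of Gnmt and Bhmt, of Bhmt and Mat1a, of Cth and Cbs, of Cbs and Mat2a, and of Mat2a and Pemt overlapped, and the other neighbours did not. In AF and in AF with MNA, Mat1a stood above Bhmt in the order of means, and its libraries did not overlap those of Bhmt in AF but did in AF with MNA. For 73 of 78 entries made only of known lncRNA transcripts, the gene level matched coverage over all exons joined in the entry. If levels of the enzymes were made the same way, long partial transcripts lower the level of an entry, and this was not checked for the enzymes. For Bhmt the known exons cover 5758 bases against 2490 in its longest coding transcript, 2.31 times as many. Mat1a has a single known transcript of 3208 bases, but its entry also holds 3 transcripts assembled from these libraries, against 0 for Bhmt. The exons of these 3 were not counted in that length.

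The first comparison asked how the enzymes differed between alcohol-fed and pair-fed liver. The mean levels of Mat1a and Gnmt were higher in AF than in PF without overlap of the libraries, while the libraries of the other 7 enzymes overlapped. With limma and Benjamini-Hochberg adjustment over 12268 genes, 0 of the 9 had an adjusted p under 0.05, against 0.326% of all genes tested. At an unadjusted p under 0.05, 2 of 9 passed, Mat1a and Gnmt, against 11.7% of all genes. Without 1 library this count was 1 to 3, since Gnmt was lost without AF replicate 1 or AF replicate 3, and Mat2a passed without PF replicate 1 or AF replicate 2. With the replicate block it was 3, with Mat2a. A fold threshold was adapted from the cut that the methods state for lncRNAs tested with Ballgown, and was applied here to gene entries with the unadjusted limma p, under 0.05, and with mean FPKMs of both groups that differ by more than 1 on the log2 scale. It was passed by 0 of 9, against 4.30% of all genes. Without 1 library this count too depended on which was left out, and was 0 or 1. Mat1a passed without PF replicate 2 (log2 ratio of the group means 1.03), PF replicate 3 (1.04), AF replicate 1 (1.03) or AF replicate 3 (1.14), and Gnmt passed without AF replicate 2 (1.10). Groups that did not overlap, with AF higher, were found for 2 of 9, against 8.18% of all genes.

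**Figure D1:**
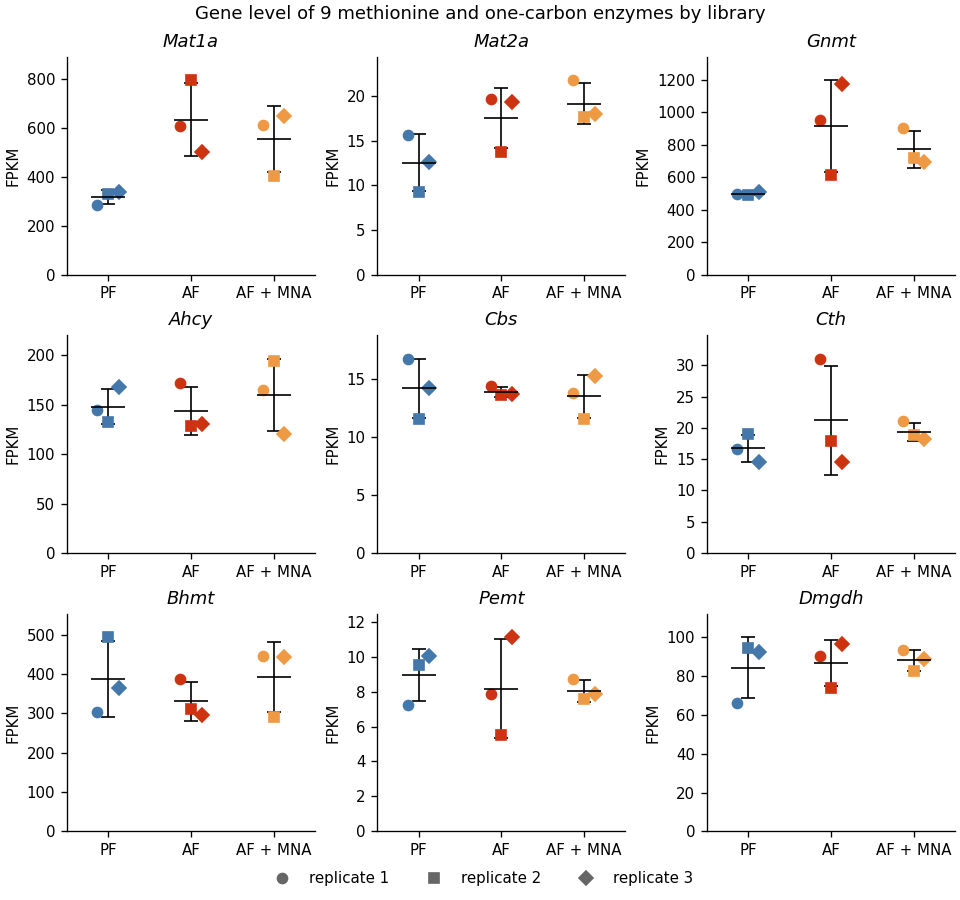
Level in FPKM (vertical axes, from 0) of each of the 9 enzymes in PF, AF and AF with MNA (AF + MNA). Each symbol is 1 library, with its shape giving the replicate number, and the long tick and bars are the mean and SD of 3 libraries. Mat1a and Gnmt sit higher in every AF and AF with MNA library than in every PF library, and the symbols of the other enzymes overlap between AF and PF.

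Mat1a (ENSMUSG00000037798, chr14:41105035-41124412, plus strand, GRCm38) measured 285, 330 and 336 FPKM in PF, 607, 794 and 500 in AF, against 612, 402 and 649 in the MNA group. The lowest alcohol-fed library stood above the highest pair-fed one, and AF with MNA overlapped AF. The mean was 2.00 times as high in AF as in PF, with a log2 fold change of 0.97 ± 0.21 (SE), a 95% interval of 0.47 to 1.48 and a limma adjusted p of 0.157. This and the other fold changes are on the log2(FPKM + 1) scale. The log2 ratio of the group means was 0.9994, just short of the 1 that the fold threshold asks for. By unadjusted p, 0.00284, Mat1a ranked 222 of the 12268 genes. The exact two-sided permutation test gave p = 0.1, the smallest that 3 against 3 libraries allow. Without any 1 library in turn the log2 fold change was between 0.80 and 1.13.

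Mat2a (ENSMUSG00000053907, chr6:72432799-72439558, minus strand) was far lower per length than Mat1a, at 15.6, 9.25 and 12.7 FPKM in PF, 19.7, 13.7 and 19.3 in AF, against 21.8, 17.7 and 18.0 in the MNA group. AF replicate 2 lay inside the PF range, and all AF with MNA libraries lay above it. For AF against PF the log2 fold change was 0.47, with a 95% interval of -0.08 to 1.01 and a limma adjusted p of 0.488. The entry of Mat2a holds 10 known transcripts, 5 of them coding and 3 with retained introns. Its promoter window, printed above, lies inside Particl, a lncRNA of 1 exon on the opposite strand (chr6:72439051-72440610). Particl was between 0.899 and 2.13 FPKM over the 9 libraries, and its groups overlapped. The ratio of Mat1a to Mat2a levels was 18.2, 35.6 and 26.5 in PF, 30.8, 57.9 and 25.9 in AF, against 28.1, 22.7 and 36.2 in the MNA group. These ratios overlapped among all groups, and this and the ratios below were chosen after the values were seen.

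Gnmt (ENSMUSG00000002769, chr17:46725664-46729168, minus strand) measured 495, 490 and 510 FPKM in PF, 954, 613 and 1175 in AF, against 903, 720 and 693 in the MNA group. The PF libraries were close together, with a coefficient of variation of 2.02%, against 31.0% in AF and 14.8% in AF with MNA. Every alcohol-fed library was above the PF range. The mean was 1.83 times as high in AF as in PF, with a log2 fold change of 0.82 ± 0.26, a 95% interval of 0.20 to 1.44 and a limma adjusted p of 0.323. AF replicate 3, the library with the highest intron signal, was also the highest for Gnmt, and the part of that signal was not tested. Without this library the log2 fold change was 0.62 with a limma adjusted p of 0.35 and an unadjusted p of 0.0529. Without AF replicate 1, which did not have a high intron signal, it was 0.77 with an unadjusted limma p of 0.0517, and without AF replicate 2 it was 1.09. The libraries within AF stood in opposite order for both genes, since Mat1a was highest in replicate 2 and lowest in replicate 3, and Gnmt the reverse.

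Pemt (ENSMUSG00000000301, chr11:59970614-60046489, minus strand), the other methyltransferase of the set, measured 7.24, 9.54 and 10.1 FPKM in PF, 7.89, 5.50 and 11.1 in AF, against 8.73, 7.55 and 7.84 in the MNA group. AF spanned the whole PF range. The log2 fold change for AF against PF was -0.15, with a 95% interval of -0.75 to 0.45. The ratio of Gnmt to Pemt was 68.4, 51.4 and 50.7 in PF, 121, 111 and 106 in AF, against 104, 95.3 and 88.4 in the MNA group. It did not overlap between any pair of groups and spread less within AF than Gnmt alone. For each pair of groups the exact two-sided permutation test on the log2 ratio gave p = 0.1, the smallest possible, which became 0.35 after adjustment over the 21 tests of 7 ratios. The adjustment covers only these 7 ratios, which were chosen after the values were seen.

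Ahcy (ENSMUSG00000027597, chr2:155059310-155074497, minus strand) measured 144, 132 and 168 FPKM in PF, 172, 128 and 131 in AF, against 165, 194 and 121 in the MNA group. The groups overlapped throughout. For AF against PF the log2 fold change was -0.05, and its 95% interval ran from -0.48 to 0.38. The ratio of Gnmt to Ahcy was 3.43, 3.72 and 3.04 in PF, 5.55, 4.78 and 9.00 in AF, against 5.49, 3.72 and 5.75 in the MNA group. The ratio was higher in every AF library than in every PF library (exact permutation p = 0.1, adjusted 0.35), and AF with MNA replicate 2 was next to PF replicate 2.

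Bhmt (ENSMUSG00000074768, chr13:93616675-93637961, minus strand) measured 303, 494 and 365 FPKM in PF, 388, 310 and 296 in AF, against 445, 290 and 443 in the MNA group. All 3 groups overlapped, with the highest library in PF. The log2 fold change for AF against PF was -0.21, with a 95% interval of -0.75 to 0.34, and it was -0.016 without PF replicate 2 and -0.37 without PF replicate 1. Dmgdh (ENSMUSG00000042102, chr13:93674433-93752833, plus strand) measured 66.3, 94.4 and 92.7 FPKM in PF, 90.2, 73.9 and 96.7 in AF, against 93.5, 82.7 and 88.7 in the MNA group. Its highest level over the 9 libraries was 1.46 times its lowest, and the groups overlapped. For AF against PF its log2 fold change was 0.05, with a 95% interval of -0.42 to 0.52.

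Cbs (ENSMUSG00000024039, chr17:31608894-31637238, minus strand) measured 16.7, 11.6 and 14.2 FPKM in PF, 14.4, 13.6 and 13.7 in AF, against 13.8, 11.6 and 15.2 in the MNA group. All AF libraries lay inside the PF range. The log2 fold change for AF against PF was -0.01, with a 95% interval of -0.38 to 0.36. Cth (ENSMUSG00000028179, chr3:157894248-157925077, minus strand) measured 16.7, 19.0 and 14.5 FPKM in PF, 31.1, 18.0 and 14.5 in AF, against 21.04, 18.9 and 18.3 in the MNA group. AF replicate 1 stood above all others, while the remaining pair of AF libraries lay within or at the edge of the PF range. The log2 fold change was 0.26, with a 95% interval of -0.41 to 0.93, and without AF replicate 1 it was -0.04. For Pemt, Ahcy, Bhmt, Dmgdh, Cbs and Cth the limma adjusted p was between 0.763 and 0.985, and these intervals leave room for differences in either direction.

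**Figure D2:**
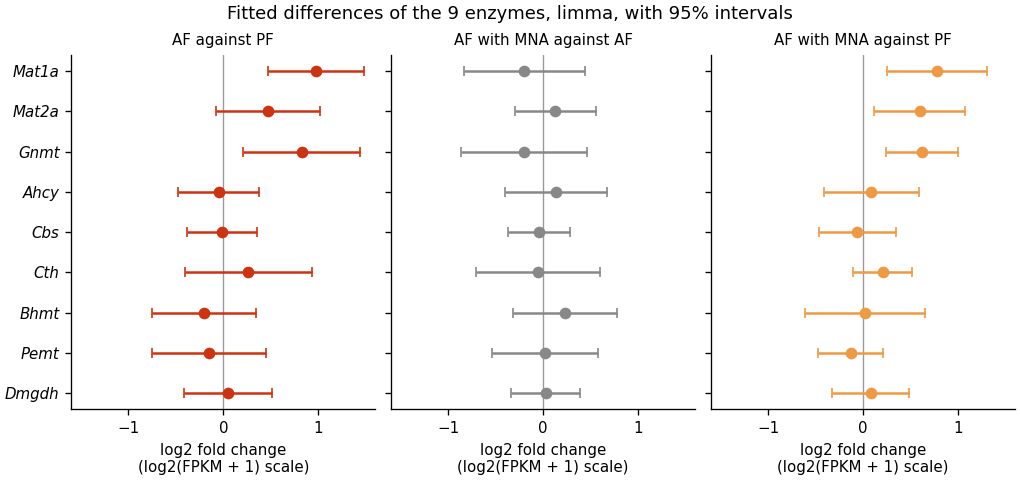
Log2 fold change on the log2(FPKM + 1) scale (horizontal axes) of the 9 enzymes in each comparison. Points are limma estimates from 3 against 3 libraries and bars are unadjusted 95% intervals. The intervals of Mat1a and Gnmt lie above 0 for AF against PF, those of Mat1a, Mat2a and Gnmt lie above 0 for AF with MNA against PF, and all 9 include 0 for AF with MNA against AF.

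The second comparison asked how the enzymes differed between alcohol-fed liver with and without MNA. The libraries of all 9 enzymes overlapped between both groups. With limma over 12214 genes, 0 of 9 had an adjusted p under 0.05, against 0.0491% of all genes, and 0 of 9 had an unadjusted p under 0.05, against 5.22%. The fold threshold was passed by 0 of 9, against 1.98% of all genes, and groups did not overlap for 0 of 9, against 10.1%. Mean Mat1a was 0.875 times and mean Gnmt 0.845 times the AF mean, with log2 fold changes of -0.20 for each and 95% intervals of -0.84 to 0.44 and -0.87 to 0.46. For Bhmt the log2 fold change was 0.23, with a 95% interval of -0.32 to 0.77, and without any 1 library in turn it was between 0.12 and 0.43. The lowest limma adjusted p of the 9 was 0.98. The narrowest interval was that of Cbs, from -0.37 to 0.28, so that for every enzyme a change of at least 0.28 on the log2 scale lay within the interval.

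The third comparison set AF with MNA against PF, and shares its samples with both comparisons above. The libraries of Mat1a, Gnmt and Mat2a in AF with MNA all lay above those in PF, and the libraries of the other 6 overlapped. These were 3 of 9 enzymes with AF with MNA higher, against 9.54% of all 12276 genes. With limma 0 of 9 had an adjusted p under 0.05, against 0.432% of all genes, 3 of 9 had an unadjusted p under 0.05, against 14.5%, and 0 of 9 passed the fold threshold, against 3.89%. Mat1a was 1.75 times as high as in PF, with a log2 fold change of 0.78 ± 0.22, a 95% interval of 0.25 to 1.31 and a limma adjusted p of 0.228. Gnmt was 1.55 times as high, with a log2 fold change of 0.62 ± 0.15, a 95% interval of 0.24 to 1.00 and a limma adjusted p of 0.191. Mat2a was 1.53 times as high, with a log2 fold change of 0.60 ± 0.20, a 95% interval of 0.12 to 1.08 and a limma adjusted p of 0.276. The exact permutation test gave p = 0.1 for each of the 3, the smallest possible. Without AF with MNA replicate 1, the library of this group with a high intron signal, the log2 fold changes were 0.69 for Mat1a, 0.50 for Gnmt and 0.51 for Mat2a, and Mat2a, with an unadjusted limma p of 0.0707, no longer passed. Among the other 6 enzymes the log2 fold change was between -0.13 for Pemt and 0.21 for Cth, with limma adjusted p of 0.527 to 0.982.

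The genes nearest to an enzyme over the 9 libraries were taken from the 3607 genes whose mean reached 5 FPKM, by the root mean square difference of centred log2(FPKM + 1). For Mat1a they were Gm20402 at 0.17 and Cyp2a12 at 0.21, against a spread of Mat1a itself of 0.49. For Gnmt they were Rdh16f2 at 0.16 and Gm5424 at 0.17, against 0.43, and for Mat2a they were Abca3 at 0.13 and Pls3 at 0.14, against 0.34. No enzyme of the set was among the nearest pair of another. The differences are a description of 9 libraries that share the same treatments.

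Genes around the 9 enzymes were followed with 7 lists of 84 symbols, of which 83 were found in the table, and 75 passed the filter for AF against PF. With limma 0 of the 75 had an adjusted p under 0.05, 9 were higher and 8 lower at an unadjusted p under 0.05, and 4 were higher and 1 lower by the fold threshold. Over all 12268 genes 5.10% were higher and 6.58% lower at an unadjusted p under 0.05, and 1.95% higher and 2.35% lower by the fold threshold. The median log2 fold change over these genes was 0.03, against -0.03 over all genes tested and 0.05 over the 9 enzymes. For AF with MNA against AF 0 of 76 passed the adjusted p or the fold threshold, while 2 were higher and 4 lower at an unadjusted p under 0.05, against 2.91% and 2.30% of all genes. By the fold threshold 1.03% of all genes were higher and 0.950% lower. For AF with MNA against PF 0 of 76 passed the adjusted p, 9 were higher and 10 lower at an unadjusted p under 0.05, against 6.52% and 7.94% of all genes, and 1 was higher and 1 lower by the fold threshold, against 1.94% and 1.95%.

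The list that takes cysteine onward to taurine, sulfide oxidation and glutathione held 3 of the genes past the fold threshold for AF against PF, 2 higher and 1 lower of 11 tested, against 1.95% and 2.35% of all genes. Ethe1, a mitochondrial persulfide dioxygenase, measured 16.5, 12.9 and 21.2 FPKM in PF, 46.5, 30.2 and 42.2 in AF, against 31.1, 23.5 and 28.3 in the MNA group. Every AF and AF with MNA library was above the PF range, and AF replicates 1 and 3 were the highest. For AF against PF its log2 fold change was 1.19 ± 0.24 with a limma adjusted p of 0.127. Gclc, the catalytic subunit of glutamate-cysteine ligase, measured 4.86, 2.80 and 3.34 FPKM in PF, 5.13, 9.51 and 7.89 in AF, against 7.66, 9.13 and 6.10 in the MNA group. It passed the fold threshold against PF in both alcohol-fed groups by the log2 ratio of the mean FPKMs, 1.03 in AF and 1.06 in AF with MNA. The limma log2 fold changes were 0.86 and 0.90, so that it did not pass when these were used in place of the ratio, and the limma adjusted p were 0.294 and 0.162. Gclm, which encodes the modifier subunit of the same enzyme, measured 15.7, 12.5 and 13.4 FPKM in PF, 5.16, 14.9 and 6.92 in AF, against 6.25, 8.03 and 7.88 in the MNA group. All AF with MNA libraries were below PF, while AF overlapped it, and the log2 fold changes against PF were -0.69 in AF and -0.83 in AF with MNA, with limma adjusted p of 0.502 and 0.0979. Csad, which makes hypotaurine from cysteine sulfinate, measured 16.3, 13.3 and 6.83 FPKM in PF, 5.19, 2.60 and 5.25 in AF, against 4.48, 9.17 and 3.46 in the MNA group. All AF libraries were below PF, with a log2 fold change of -1.26 ± 0.35 and a limma adjusted p of 0.27. Over the 11 tested genes of this list 2 were higher and 1 lower at an unadjusted p under 0.05, against 5.10% and 6.58% of all genes, and the median log2 fold change was 0.20.

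The glycine and serine list held the other pair, both higher, of 8 tested, against 1.95% of all genes. Sds, serine dehydratase, which was also counted among the periportal markers, measured 9.01, 16.7 and 21.04 FPKM in PF, 32.8, 42.2 and 25.0 in AF, against 21.97, 18.6 and 18.3 in the MNA group. Sdsl, a related dehydratase, measured 1.16, 2.01 and 1.89 FPKM in PF, 4.11, 5.38 and 2.80 in AF, against 1.88, 3.03 and 3.27 in the MNA group. Both were above the PF range in every AF library, with log2 fold changes of 1.09 and 0.91 and limma adjusted p of 0.307 and 0.228. Sdsl passed by a log2 ratio of the mean FPKMs of 1.28, and did not pass with limma's coefficient. Of the 8 tested genes of this list 2 were higher and 2 lower at an unadjusted p under 0.05, against 5.10% and 6.58% of all genes, with a median log2 fold change of 0.14. In the polyamine and methionine salvage list, Adi1, which makes the keto acid before methionine in the salvage pathway, measured 61.8, 53.4 and 61.5 FPKM in PF, 56.3, 48.5 and 49.6 in AF, against 21.5, 16.1 and 50.4 in the MNA group. Replicates 1 and 2 of AF with MNA stood far below replicate 3. For AF with MNA against PF its log2 fold change was -1.14 ± 0.40 with a limma adjusted p of 0.289.

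The remaining lists held no gene past the fold threshold in any of the 3 comparisons. Of 8 partners in the methionine cycle, such as Mat2b and Mtr, 0 had an unadjusted p under 0.05 for AF against PF, with a median log2 fold change of -0.18. Of 11 tested methyltransferases 1 was higher and 4 lower at an unadjusted p under 0.05, with a median of -0.12, where 5.10% of all genes were higher and 6.58% lower. Of 11 genes of choline, betaine and sarcosine 1 was higher and 0 lower, with a median of -0.07, and of 15 folate genes 3 were higher and 1 lower, with a median of 0.07. In the polyamine and salvage list, which holds Adi1 described above, 0 of 11 genes had an unadjusted limma p under 0.05 for AF against PF. The median of that list was 0.07.

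**Figure D3:**
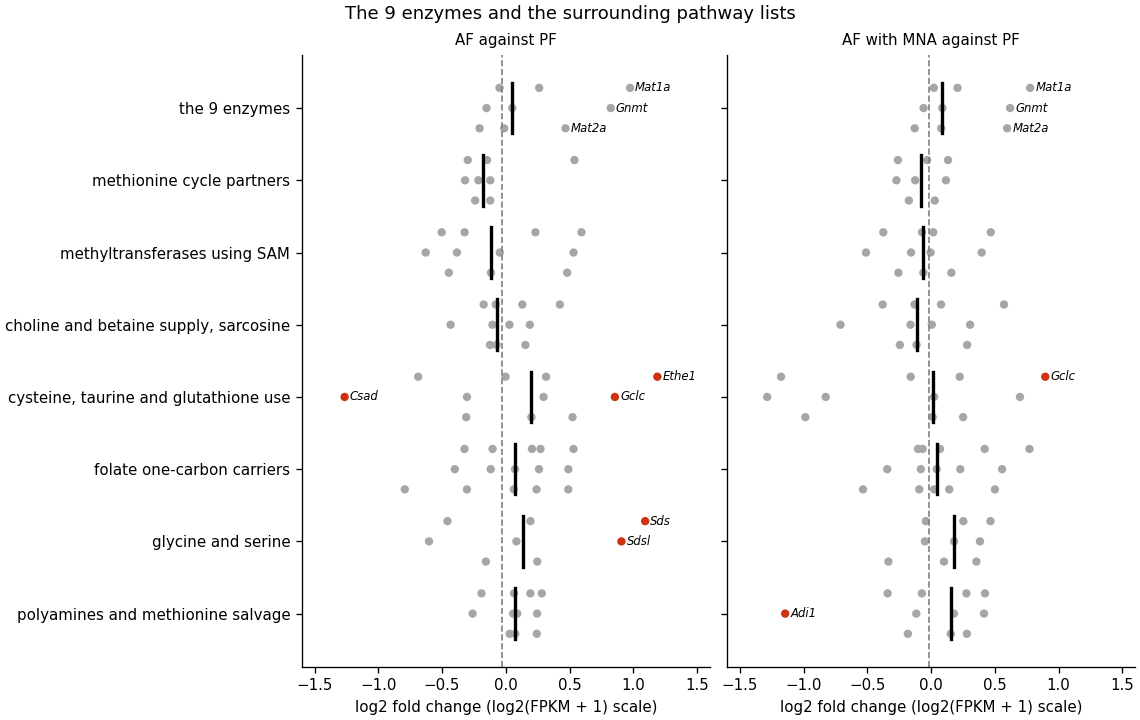
Log2 fold change on the log2(FPKM + 1) scale (horizontal axes) of each tested gene of the 9 enzymes and the 7 pathway lists, for AF against PF (left) and AF with MNA against PF (right). Each point is 1 gene, thick bars are list medians, the dashed line is the median of all genes tested (-0.03 and -0.02), and red points passed the fold threshold. Ethe1, Gclc, Sds and Sdsl lie to the right and Csad to the left for AF against PF, and Gclc and Adi1 pass for AF with MNA against PF.

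Circular RNAs (circRNAs), which arise when the end of an exon is joined back to the start of an earlier one, were counted in the libraries as reads across that junction. Of 4486 circRNAs in the table, 8 came from these enzymes, from 4 of the 9 genes (Cth, Dmgdh, Mat1a and Bhmt). The junction reads of each library were few, between 1588 and 2545 over all circRNAs, and no test was run. The circRNA of Cth with most reads joins the end of exon 4 of 12 back to the start of exon 2 (chr3:157918426-157921036, minus strand, 288 bases of exons). The 15 bases on each side of its junction, from the GENCODE M21 transcript, are given because only a circle or a rearranged RNA holds them together, with the end of exon 4 in lower case and the start of exon 2 in capitals.
Cth circRNA junction: acaccacaaaccaagGGTTTTGAATACAGC
This junction had 0, 0 and 0 reads in PF, 4, 2 and 4 in AF, against 5, 3 and 0 in the MNA group. Reads were present in all AF libraries and in no PF library, where a count of 0 over the group allows up to 3 reads, while the linear level of Cth overlapped between AF and PF. Of 86 circRNAs with at least 10 junction reads in AF, 7, or 8.14%, were at 0 in PF as this one was. That set was taken by its reads in AF. The Cth circle, with 10 reads in AF, stood at the cut, so that the others had as many reads or more. Another 3 circles of Cth had 1 read each, in AF or AF with MNA. The limit of 3 reads covers counting error only, and the protocol names no molecular identifiers.

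**Figure D4:**
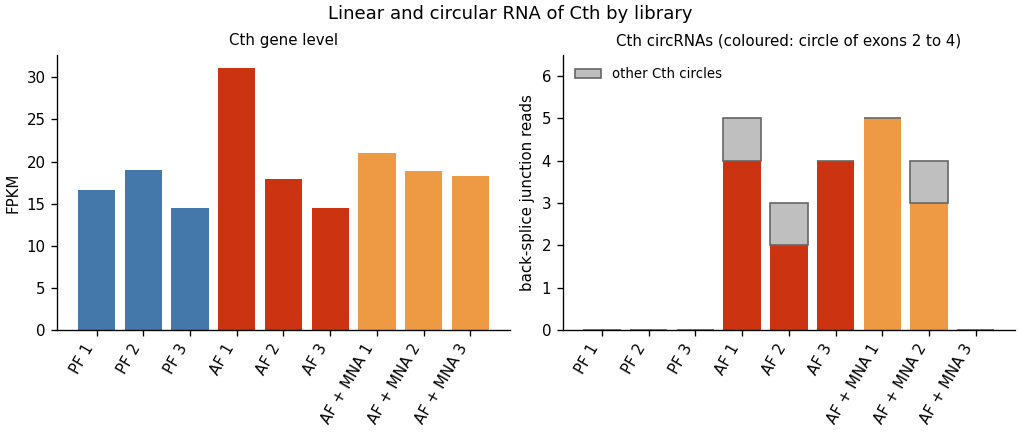
Left, Cth gene level in FPKM by library. Right, reads across back-splice junctions of Cth by library, with the circle of exons 2 to 4 in the colour of the group and the other Cth circles in grey. The gene level overlaps between groups, and the junction reads are at 0 in all 3 PF libraries and between 3 and 5 in the AF libraries.

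A circle of Dmgdh exons 3 to 5 had 0, 1 and 1 reads in PF, 0, 1 and 1 in AF, against 5, 3 and 0 in the MNA group. The reads of AF with MNA came from the pair of libraries with the largest totals of reads, and a second circle of Dmgdh, of exons 2 to 9, had 2 reads in AF with MNA replicate 1. A circle of Mat1a exons 5 to 7 had 3 reads in AF replicate 2, the library with the highest Mat1a level, and 0 in all others. Bhmt had 1 circle, of exons 4 to 6, with 3 reads in AF with MNA replicate 1 alone.

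Long noncoding RNAs overlapped 6 of the enzymes. AW495222 lies inside Dmgdh on the opposite strand and had a 2-exon transcript (ENSMUST00000148316) and a 3-exon transcript (ENSMUST00000149839) in the lncRNA table. The 2-exon transcript measured 10.5, 14.5 and 13.8 FPKM in PF, was listed at 0 in all AF libraries, and measured 15.5 FPKM in AF with MNA replicate 1 and 0 in the other pair. The 3-exon transcript measured 0.102, 0.748 and 0.254 FPKM in PF, 8.03, 6.20 and 9.61 in AF, against 0.126, 7.00 and 7.86 in the MNA group. Where the level of one was high, that of the other was low, in each of the 9 libraries, and AF with MNA replicate 1 had the pattern of PF. The gene entry of AW495222, which joins both, measured 6.28, 9.25 and 8.35 FPKM in PF, 7.59, 5.86 and 9.08 in AF, against 9.22, 6.61 and 7.43 in the MNA group. At the level of the gene the groups overlapped, as did those of Dmgdh. Whether the authors' quantification used the strand of the reads is not stated, so reads of Dmgdh introns and of AW495222 cannot be told apart here. By sequencing, the paper lists one AW495222 transcript as lower and another as higher in AF than in PF. By qRT-PCR it reports the same direction for the lower one and the reverse direction for the higher one. It numbers these transcripts without saying which of the 2 identifiers above each one is.

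**Figure D5:**
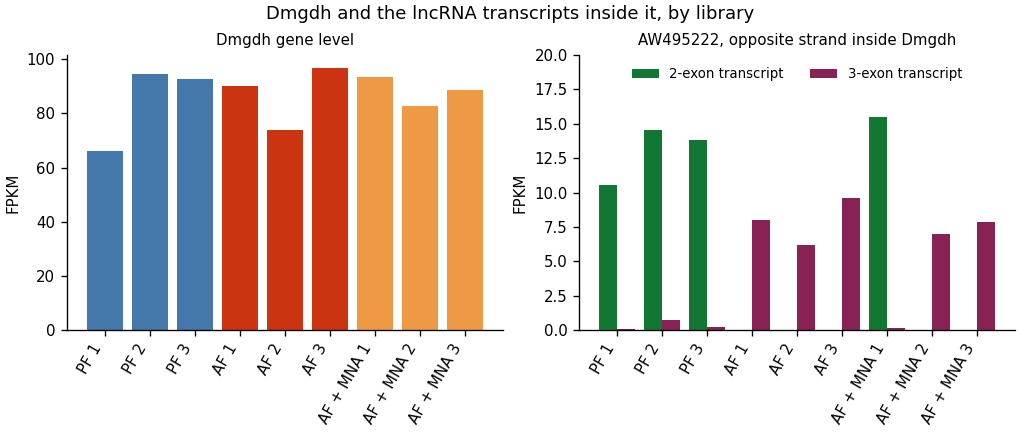
Left, Dmgdh gene level in FPKM by library. Right, level in FPKM of the 2-exon and 3-exon transcripts of AW495222, on the opposite strand inside Dmgdh. The 2-exon transcript is high in the 3 PF libraries and in AF with MNA replicate 1, the 3-exon transcript in the other 5 libraries, and Dmgdh overlaps between groups.

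Gm15622 lies inside Bhmt on the opposite strand and measured 4.62, 51.4 and 43.4 FPKM in PF, 11.2, 15.3 and 13.7 in AF, against 34.5, 10.6 and 17.3 in the MNA group. PF replicate 1 was below all AF libraries and the other pair of PF libraries above them, so that the groups overlapped. Gm43314, within the Cth gene on the same strand, was between 0.86 and 3.05 FPKM, and Gm26904, which spans Gnmt on the opposite strand, was at most 0.65 FPKM. Transcript ENSMUST00000209837 of Gm45609, at the start of Ahcy on the opposite strand, was at most 0.357 FPKM.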

How the data were processed

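Liver RNA of 3 PF, 3 AF and 3 AF with MNA libraries was depleted of ribosomal RNA and sequenced from both ends, and groups were taken from the sample labels. FPKM values for genes and for single lncRNA transcripts were made by the authors with StringTie 1.3.4, and they deposited the gene values rounded to 2 decimals. The submitters' processing notes also name cutadapt 1.9, FastQC, HISAT2, TopHat and edgeR. Which aligner, genome build and circRNA caller gave the values is not given in the sources used here. Of 7841 known lncRNA transcripts found in GENCODE M21 (GRCm38), 98.3% had the same coordinates. The circRNA count values were deposited by the authors as junction reads without normalization. The normalized signal that the authors deposited beside them equals the count over a single constant per library, from which total reads were recovered. For 73 of 78 entries made only of known lncRNA transcripts, the gene FPKM matched coverage over the union of exons within 2%.

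Named entries that held a known transcript and averaged 0.5 FPKM or more in the 6 compared libraries were tested on log2(FPKM + 1) with limma 3.58.1 in R 4.3.3, by lmFit and then by eBayes with a trend on the mean level, with only the compared groups in the fit and Benjamini-Hochberg adjustment over all genes tested. The fit was tested on simulated data. The gene table gives no counts, so that precision was judged from the replicate spread. Single values were also compared by exact two-sided permutation tests. The members and lists were chosen with earlier results of these data known. Of the pathway lists a gene was named if it passed the adjusted p of 0.05 or the fold threshold in 1 of the 3 comparisons. Mat2b and Mtr are named only as examples of a list, and Gclm, Suox, Tst and Mmachc were chosen after their values were seen. The methods state the fold threshold for lncRNAs, and its use for genes was a choice made here. For each enzyme, the 2 nearest genes were found, and those of Mat1a, Mat2a and Gnmt are given. Alternatives were a pseudocount of 0.1, other minimum levels, median scaling, no trend, a fit of all 9 libraries, a block for the replicate number, limma's coefficient as the fold change, an unmoderated model with a library-size covariate, all entries of the table, and each library left out in turn. Python 3.11.15, pandas 2.3.3 and matplotlib 3.10.9 were used.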

Additional observations from a re-analysis of the deposited data

How the results depend on the processing

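The adjusted p of each of the 9 enzymes stayed above 0.05 in every comparison under all 15 alternatives, with a lowest value of 0.0869 for Gnmt in AF against PF. The log2 fold change stayed above 0 under all 15 for Mat1a (0.80 to 1.13), Gnmt (0.62 to 1.09) and Mat2a (0.28 to 0.63) in AF against PF, and for Mat1a (0.65 to 1.02), Gnmt (0.50 to 0.78) and Mat2a (0.41 to 0.79) in AF with MNA against PF. Bhmt stayed below 0 in AF against PF (-0.37 to -0.016) and above 0 in AF with MNA against AF (0.12 to 0.43), and in AF with MNA against PF Cth stayed above 0 (0.12 to 0.30) and Pemt below 0 (-0.26 to -0.023). The other values changed sign under at least 1 alternative, and the cause was not tested. Scaling of libraries to the same median gave Cbs 0.014 in AF against PF, and the unmoderated model with a library-size covariate gave Pemt 0.0059 in AF against PF and -0.0031 in AF with MNA against AF, and Cbs 0.068 in AF with MNA against PF.

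Leaving out each library in turn gave, in AF against PF, -0.19 to 0.043 for Ahcy, -0.14 to 0.11 for Cbs, -0.039 to 0.48 for Cth, -0.38 to 0.074 for Pemt and -0.11 to 0.16 for Dmgdh. In AF with MNA against AF it gave -0.35 to 0.018 for Mat1a, -0.030 to 0.22 for Mat2a, -0.47 to 0.0038 for Gnmt, -0.013 to 0.33 for Ahcy, -0.13 to 0.055 for Cbs, -0.28 to 0.25 for Cth, -0.20 to 0.25 for Pemt and -0.082 to 0.11 for Dmgdh. In AF with MNA against PF it gave -0.063 to 0.28 for Ahcy, -0.19 to 0.060 for Cbs, -0.14 to 0.23 for Bhmt and -0.084 to 0.17 for Dmgdh.

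The counts over all genes depended on the settings. By adjusted p the counts for AF against PF, AF with MNA against AF and AF with MNA against PF were 40, 6 and 53. They became 25, 2 and 22 with any value above 0, 86 for the first and 0 for the second with all 9 libraries in the fit, 0, 1 and 0 in the covariate model, and 2 for the second at a minimum of 2 FPKM. Without 1 library they ran from 25 to 47, 6 to 13 and 24 to 47. By the fold threshold the counts of 527, 242 and 477 became 1183, 676 and 1105 with any value above 0, 265, 81 and 228 at 2 FPKM, 249, 99 and 229 with limma's coefficient, 335, 106 and 246 in the covariate model, and 993, 572 and 837 with all entries. Without 1 library they ran from 516 to 764, 211 to 367 and 467 to 545. Of the 9 enzymes 0 passed it, and without 1 library 0 to 1 passed in AF against PF and 0 in the others. Of the pathway genes, 5, 0 and 2 passed the fold threshold. The counts became 3 for the first and 1 for the last with limma's coefficient, 2 and 0 in the covariate model, and 1 for the second and 4 for the last with any value above 0, and without 1 library they ran from 4 to 7, 0 to 3 and 0 to 5.

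Deviations of same-numbered libraries from their group means correlated between -0.08 and 0.06 over all genes. No pairing by replicate number was seen across genes, and pairing in single genes was not tested. With the replicate block the counts by adjusted p were 18, 1 and 0. In that fit Mat2a had an unadjusted limma p of 0.019 for AF against PF, against 0.0808 without the block. The table gives FPKM without counts, and 3 libraries per group limit the precision.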

Other observations

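The libraries of a group differed widely for 3 genes of the pathway lists, chosen after their values were seen. Suox, the mitochondrial sulfite oxidase, measured 46.6, 41.2 and 18.6 FPKM in PF, 67.9, 32.8 and 49.3 in AF, against 4.36, 7.60 and 58.1 in the MNA group. Tst, thiosulfate sulfurtransferase, measured 84.0, 81.7 and 71.7 FPKM in PF, 67.9, 57.5 and 66.3 in AF, against 5.86, 82.4 and 76.4 in the MNA group. Mmachc, which handles cobalamin, was at 6.11 FPKM in AF replicate 1 and between 0.88 and 1.81 in the other 8 libraries.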
